A study of Mus musculus with 12 samples.

Results

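In mouse bone marrow-derived dendritic cells (BM-DCs), 8 genes of cholesterol and lipoprotein handling that are known targets of the liver X receptors (LXRs) were followed: Apoe, Apoc2, Abca1, Abcg1, Nr1h3, Mylip, Lpl and Pltp. They were chosen by gene symbol, as 8 of the 53465 genes listed, and 7 of them passed the filter on low values, while Apoc2 had no read in any library. The cells came from bone marrow of wild type mice at post-natal week 12, of the strain C57BL/6 in the labels and C57BL/6J in the study's methods, and were cultured for 9 days. RNA was sequenced from 12 cultures, 3 per group: untreated cells (Ctrl), cells given lipopolysaccharide (LPS, the outer membrane glycolipid of Gram-negative bacteria, used to mature the cells) at 100 ng/ml for 18 h, cells given oligomers of the human beta-amyloid peptide Aβ1-42 at 0.5 µM (Aβ), and cells given both (Aβ+LPS). The sample labels give 4 days for the Aβ treatment, and the protocol text places its addition on day 8 of the culture. The study's figure legend describes 4 days in all, begun the day before maturation with LPS. By that account the harvest came after the 9 days and after the 18 h of LPS. No library with a scrambled or other control peptide was analysed here, so an effect of the Aβ1-42 sequence cannot be told apart from one of adding a peptide preparation. The labels do not say whether replicates came from different mice, and p-values measure only the spread between these cultures.

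LXRs are nuclear receptors that bind oxidised cholesterol derivatives and, paired with a retinoid X receptor, switch on genes that move cholesterol out of the cell. ABCA1 and ABCG1 are membrane pumps that hand cholesterol to lipid-poor apolipoproteins and to high-density lipoprotein particles, and apolipoprotein E, made by macrophages, microglia and astrocytes, is a carrier of that cholesterol and a ligand of lipoprotein receptors. APOE is also a major genetic risk gene for Alzheimer's disease in humans, and ABCA1 loads brain apolipoprotein E with lipid.

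The LXR pair binds a direct repeat of the hexamer AGGTCA with any 4 bases between, written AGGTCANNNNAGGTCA. The promoter windows of the members were searched for it on both strands. RefSeq windows of the GRCm38.p6 assembly run from 250 bases before to 50 bases after a start site. They were at hand for 6 of the 8 members, and not for Abcg1 and Lpl. With at most 3 mismatches over the 12 fixed letters, only the Abca1 window held a match, beginning 67 bases before the start site on the strand opposite to the gene, where it reads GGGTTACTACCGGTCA. That number of mismatches is common, as 21.9% of all 32851 windows held such a match. The Abca1 window lies at chr4:53159846-53160145 and the window at the outermost Apoe start at chr7:19699139-19699438. Both genes are on the minus strand, and the windows are written 5′ to 3′ along the gene, with the match in capitals in that of Abca1.
Abca1: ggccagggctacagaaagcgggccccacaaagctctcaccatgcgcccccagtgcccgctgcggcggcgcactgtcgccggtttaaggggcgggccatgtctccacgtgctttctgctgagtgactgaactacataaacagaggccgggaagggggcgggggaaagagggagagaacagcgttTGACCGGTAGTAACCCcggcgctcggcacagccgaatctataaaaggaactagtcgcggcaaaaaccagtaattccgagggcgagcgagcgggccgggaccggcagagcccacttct
Apoe: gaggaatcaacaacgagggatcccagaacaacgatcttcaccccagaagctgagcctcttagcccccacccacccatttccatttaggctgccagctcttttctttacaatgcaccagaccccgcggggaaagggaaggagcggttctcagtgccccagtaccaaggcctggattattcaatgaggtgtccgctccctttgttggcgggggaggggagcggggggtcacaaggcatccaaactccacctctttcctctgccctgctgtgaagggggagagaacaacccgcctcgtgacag
The Apoe window holds no run with 3 or fewer mismatches, nor do the windows at its other annotated starts, which says only that these letters are not there. Sequence outside the windows was not searched, and the part of such matches in the changes of any member was not tested.

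Each library held 23415609 to 29690965 reads in genes. LPS replicates 2 and 3 differed most, with a mean squared difference over genes of 13.2 times the counting variance, against 3.13 to 7.26 times for the other replicate pairs. Leaving out LPS replicate 2 changed no member's call, and leaving out LPS replicate 3 changed only that of the Abcg1 interaction, given with its result. Among markers of dendritic cells, Itgax, H2-Ab1 and Cd74 were expressed in every group. Others were low in Ctrl, with Flt3 at 5.09 ± 4.07 normalized counts and Dpp4 at 31.8 ± 6.68. The 10 markers summed to 6183 to 6371 CPM (reads per 1000000 reads in genes) in Ctrl and 8421 to 8736 in Aβ. Csf2rb carried that difference, at 42300 ± 1820 normalized counts in Ctrl and 92250 ± 1500 with Aβ, while Itgax (31190 ± 253 and 24280 ± 490) and Csf2ra (8622 ± 663 and 5125 ± 313) fell. Genes of macrophages were expressed as well, with 4227 to 4301 CPM over 14 markers in Ctrl, 4063 to 4138 with LPS and 5308 to 5613 in Aβ. Markers of T and NK cells and of B cells summed to at most 1.21 and 4.17 CPM in any library. Neutrophil markers summed to 23.4 to 34.3 CPM in Ctrl and 49.9 to 64.3 in Aβ, with S100a8 and Camp called higher and Ly6g and Elane under 2 normalized counts on average in every group. Of the mast cell markers, at 0.59 to 1.12 CPM in Ctrl and 10.1 to 11.4 in Aβ, Kit was called higher, and Mcpt4 and Tpsb2 were at 0 in all libraries. In bulk RNA, fewer cells of a type and less RNA per cell cannot be told apart.

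Apoe (ENSMUSG00000002985, minus strand of chromosome 7, 19696109 to 19699188 in GRCm38) ranked number 535 of all genes per kb of exon in Ctrl and number 9927 in Aβ. In Ctrl the 3 libraries had 4471, 4623 and 4918 normalized counts, that is, reads divided by a size factor for the library. With LPS they had 560, 522 and 618. With Aβ they had 83.4, 75.4 and 71.8, and with Aβ+LPS 111, 111 and 101. No library of any group overlapped with another group, and the order was Ctrl, LPS, Aβ+LPS, Aβ. Apoe fell 8.24-fold with LPS (log2(fc) −3.04, SE 0.08, adjusted p = 1.4e-17 from limma across all genes tested) and 60.1-fold with Aβ (log2(fc) −5.91, SE 0.08, adjusted p = 2.3e-23). In cells that also had LPS, Aβ lowered it 5.21-fold (log2(fc) −2.38, SE 0.08, adjusted p = 6.4e-16). Counted from the lowest log2(fc) among 14324 genes tested, Apoe was number 14 in LPS vs. Ctrl, number 3 in Aβ vs. Ctrl and number 256 in Aβ+LPS vs. LPS. LPS vs. Ctrl and Aβ vs. Ctrl share the Ctrl libraries. The spread between replicates was small beside these changes, with a coefficient of variation of 4.86 to 8.52% within groups.

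Abca1 (ENSMUSG00000015243, minus strand of chromosome 4, 53030787 to 53159895 in GRCm38), the pump that lipidates apolipoprotein E and apolipoprotein A-I, was the only member that rose with LPS, with Aβ or in Aβ+LPS vs. LPS. Its libraries had 3207, 3134 and 3141 normalized counts in Ctrl and 5593, 5278 and 5994 with LPS. They had 14094, 14252 and 16016 with Aβ, and 15324, 15376 and 17163 with Aβ+LPS. The Ctrl and LPS libraries stood apart from each other and from all others, and those of Aβ and Aβ+LPS overlapped. The rise was 1.78-fold with LPS (log2(fc) 0.83, SE 0.05, adjusted p = 4.8e-11 from limma), 4.67-fold with Aβ (2.22, SE 0.05, adjusted p = 3.1e-19) and 2.84-fold in Aβ+LPS vs. LPS (log2(fc) 1.50, SE 0.05, adjusted p = 9.4e-16).

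Abcg1, the pump that acts with ABCA1 and passes cholesterol to more mature particles, did not follow it. Ctrl had 4646, 4585 and 4773 normalized counts and LPS 4230, 4285 and 4132, without overlap. The Aβ libraries had 2532, 2519 and 2430 and those of Aβ+LPS 2537, 2546 and 2490, so these groups overlapped and both lay below every other library. The fall with LPS was slight (log2(fc) −0.15, SE 0.04, adjusted p = 0.0044 from limma), whereas Aβ lowered it 1.87-fold (log2(fc) −0.90, SE 0.04, adjusted p = 8.1e-15) and the log2(fc) in Aβ+LPS vs. LPS was −0.74 (adjusted p = 6.7e-13).

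**Figure D1:**
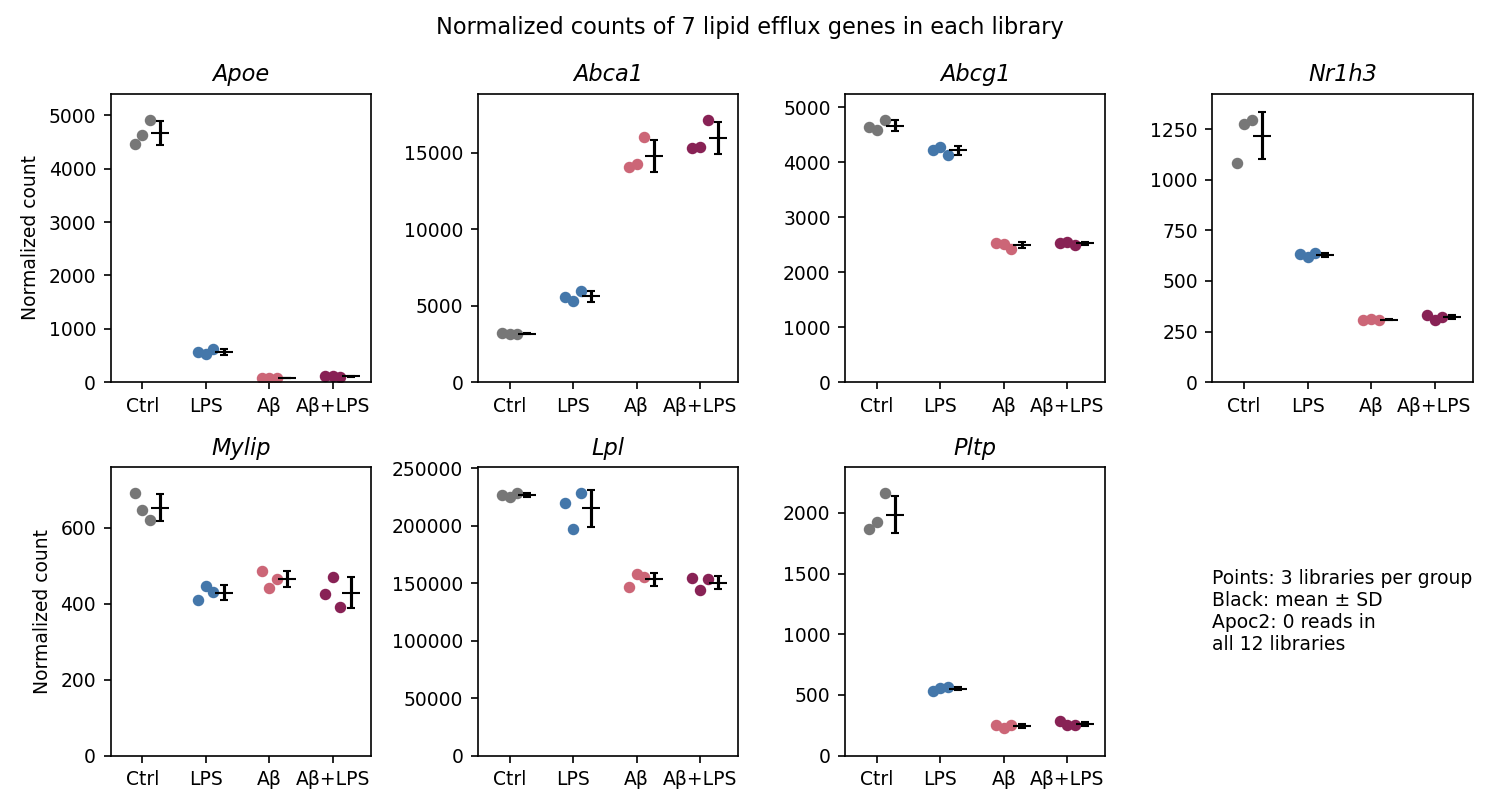
Normalized counts of the 7 members tested in each of the 12 libraries, with the mean ± SD of each group of 3 beside the points. Abca1 stands highest and Apoe, Nr1h3, Pltp, Abcg1 and Lpl lowest in the groups that had Aβ, and Apoe lies between 71.8 and 83.4 in Aβ against 4471 to 4918 in Ctrl.

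Because Abca1 rose and Apoe fell, their proportion shifted across the groups. Per kb of exon, Abca1 had 0.14 ± 0.01 times the reads of Apoe in Ctrl (mean ± SD, n = 3). The ratio was 2.05 ± 0.04 with LPS, 40.0 ± 5.65 with Aβ and 30.7 ± 3.78 with Aβ+LPS. Apoe was thus the more abundant of the pair in all 3 Ctrl libraries, and Abca1 in the other 9. On the scale of reads per kb of exon and per 1000000 reads in genes, the level of Apoe went from 79.1 ± 3.62 in Ctrl to 10.4 ± 0.83, 1.39 ± 0.12 and 1.94 ± 0.13 in LPS, Aβ and Aβ+LPS. On the same scale the level of Abca1 went from 11.0 ± 0.16 to 21.2 ± 1.25, 55.1 ± 3.78 and 59.2 ± 3.07. The ratio of Abca1 to Abcg1 per kb moved less far, from 0.48 ± 0.01 in Ctrl to 0.94 ± 0.08 with LPS, 4.18 ± 0.40 with Aβ and 4.45 ± 0.35 with Aβ+LPS.

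**Figure D2:**
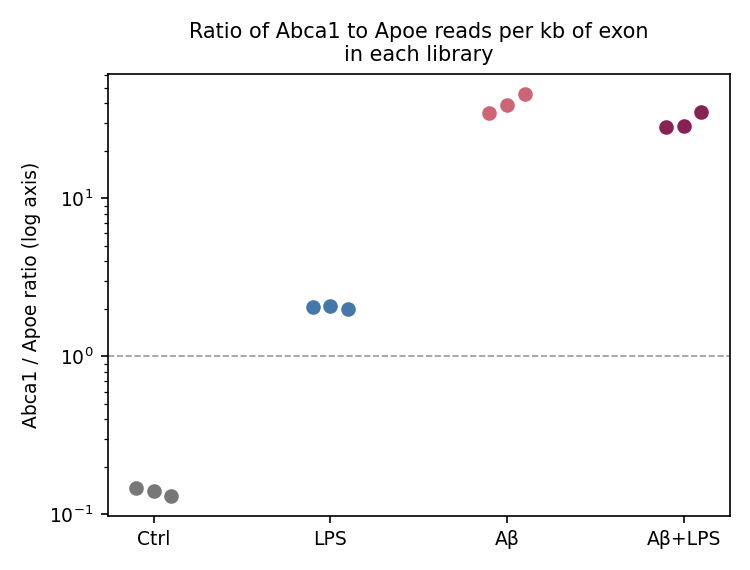
Ratio of Abca1 to Apoe reads per kb of exon in each library, on a log axis, with a dashed line at equal levels. The 3 Ctrl libraries lie between 0.132 and 0.148, those of LPS between 2.00 and 2.08, and those of Aβ and Aβ+LPS between 28.5 and 46.0.

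Nr1h3 encodes LXRα itself and is, in human macrophages, also a target of LXR. Its libraries had 1084, 1274 and 1297 normalized counts in Ctrl, 633, 618 and 637 with LPS, 308, 314 and 307 with Aβ, and 330, 309 and 321 with Aβ+LPS. Ctrl, LPS and the pair of Aβ groups formed separate steps, and the Aβ and Aβ+LPS libraries overlapped. The log2(fc) was −0.95 (SE 0.07, adjusted p = 4.5e-10 from limma) with LPS and −1.97 (SE 0.07, adjusted p = 3.4e-16) with Aβ, and −0.97 in Aβ+LPS vs. LPS. Nr1h2, which encodes LXRβ, rose by a log2(fc) of 0.32 (adjusted p = 5.3e-05) in Aβ vs. Ctrl, and its log2(fc) with LPS was 0.03 (adjusted p = 0.69).

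Pltp encodes phospholipid transfer protein, a secreted protein that remodels lipoprotein particles. Ctrl had 1870, 1928 and 2162 normalized counts, LPS 537, 557 and 564, Aβ 254, 229 and 252, and Aβ+LPS 282, 255 and 252. Ctrl lay above LPS and LPS above both Aβ groups without overlap, while the libraries of Aβ and Aβ+LPS overlapped. Pltp fell 3.58-fold with LPS (log2(fc) −1.84, SE 0.07, adjusted p = 1.1e-14 from limma), 8.07-fold with Aβ (−3.01, SE 0.07, adjusted p = 3.1e-19) and again in Aβ+LPS vs. LPS (log2(fc) −1.07, SE 0.07, adjusted p = 5.6e-11).

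Lpl, the lipase that frees fatty acids from triglyceride-rich lipoproteins, was the most abundant member by far, with 0.815 to 0.824% of all reads in Ctrl libraries. Per kb of exon it stood at rank 46 of all genes in Ctrl and at rank 68 with Aβ. Its libraries had 227173, 224837 and 228407 normalized counts in Ctrl and 220321, 197390 and 228264 with LPS, and these groups overlapped. They had 147054, 158025 and 155381 with Aβ and 154222, 144321 and 153527 with Aβ+LPS, all below the first 6. Lpl did not pass the test in LPS vs. Ctrl (log2(fc) −0.08, SE 0.06, adjusted p = 0.29 from limma) and fell 1.48-fold with Aβ (log2(fc) −0.56, SE 0.06, adjusted p = 2.0e-08) and 1.43-fold in Aβ+LPS vs. LPS (log2(fc) −0.51, adjusted p = 1.6e-07).

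Mylip encodes IDOL, a ubiquitin ligase that marks lipoprotein receptors for degradation. Ctrl libraries had 690, 645 and 620 normalized counts, above all others. LPS had 409, 447 and 431, Aβ 487, 442 and 465, and Aβ+LPS 426, 470 and 390, and these 3 groups overlapped. Mylip fell 1.52-fold with LPS (log2(fc) −0.60, SE 0.08, adjusted p = 1.5e-06 from limma) and 1.40-fold with Aβ (log2(fc) −0.49, SE 0.08, adjusted p = 1.1e-05). In Aβ+LPS vs. LPS its difference was within the spread between replicates (log2(fc) −0.00, SE 0.08, adjusted p = 0.97).

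Apoc2, the cofactor of lipoprotein lipase, was listed with 0 reads in all 12 libraries. By counting error alone, 0 reads in a single library allows up to 3 there, and 0 in all 12 allows less per library. This count is uncertain, because 79.5% of its 813 exon bases are also exon bases of the gene Gm44805 on the same strand, which likewise had 0 reads. How reads in overlapping genes were counted is not given in the sources used here. Of 179 protein-coding genes that share over 90% of their exon bases in this way, 84.4% had no read in any library, against 22.1% of those sharing under 10% and 15.8% of the 622 between, the class that holds Apoc2. Whether this set the value of Apoc2 was not tested. The other genes of the cluster were nearly silent, with 13 reads for Apoc1 and 3 for Apoc4 over all libraries.

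Of the 7 members tested, 1 was higher and 5 lower in LPS vs. Ctrl, where 46.3% of all genes tested were called (23.8% higher and 22.5% lower) at an adjusted p under 0.05. In Aβ vs. Ctrl 1 was higher and 6 were lower, against 68.8% of all genes tested called (35.1% higher and 33.7% lower). With Aβ on top of LPS, 1 was higher and 5 lower than with LPS alone, against 56.1% (27.8% higher and 28.3% lower). The median log2(fc) of the members was −0.60, −0.90 and −0.74 in these comparisons, beside 0.00, 0.02 and 0.01 over all genes tested. More than 1 in 2 genes tested was thus called in either comparison with Aβ, so the count of members called says little about them. In Aβ+LPS vs. Ctrl, where 69.8% of all genes tested were called (35.5% higher and 34.3% lower), 1 was higher and 6 were lower. Aβ and LPS alone were also set side by side, where 54.2% of all genes were called: Apoe was 7.29-fold lower with Aβ, Pltp 2.25-fold and Nr1h3 2.03-fold lower, and Abca1 2.63-fold higher, whereas Mylip did not pass (log2(fc) 0.11, adjusted p = 0.22 from limma).

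**Figure D3:**
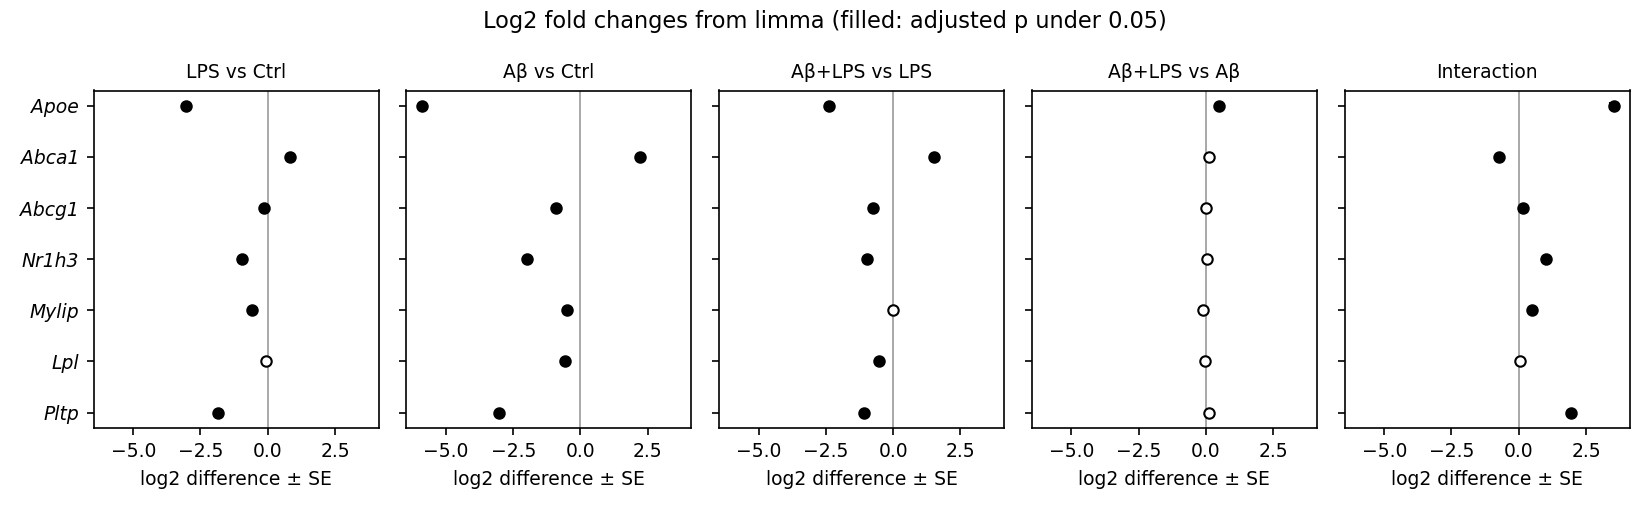
Log2 fold change of each member in 4 comparisons, and the interaction, as points with SE bars that are mostly narrower than the points. Filled points passed an adjusted p of 0.05 in limma. In Aβ+LPS vs. Aβ all points lie near 0 and only that of Apoe, at 0.48, is filled.

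In cells that already had Aβ, 20 of 14324 genes (0.140%) were called on addition of LPS, 4 higher (0.0279%) and 16 lower (0.112%). The count of 20 depended on the fit: it was 47 in DESeq2, 12 with no filter on low values and 87 of 13806 with only these 6 libraries. It was 12, 7 and 8 without Aβ replicates 1, 2 and 3, 11 and 7 without Aβ+LPS replicates 1 and 2, and 36 without Ctrl replicate 2. Apoe was among the 4, with a level 1.40-fold higher in Aβ+LPS than in Aβ (log2(fc) 0.48, SE 0.08, adjusted p = 0.016 from limma). The 3 libraries of each group did not overlap, but the share of all genes that separate in this way was not counted. The call of Apoe was not stable. It was lost in edgeR's quasi-likelihood test (log2(fc) 0.49, adjusted p = 0.15), in DESeq2 (adjusted p = 0.085) and with only these 6 libraries in the fit (adjusted p = 0.21). It was also lost when Aβ replicate 2 or 3 or Aβ+LPS replicate 1 or 2 was left out (log2(fc) 0.44 to 0.47, adjusted p = 0.084 to 0.10), and over all alternatives the log2(fc) was 0.44 to 0.54. The reads behind it were few, 229 in the Aβ and 347 in the Aβ+LPS libraries. The other 6 members did not pass, with log2(fc) values from −0.12 for Mylip to 0.11 for Abca1 and adjusted p from 0.81 to 0.98.

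The interaction asks whether the effect of Aβ with LPS differs from its effect without, and 31.7% of all genes tested were called for it (15.2% positive and 16.6% negative). Of the 7 members, 6 were called, 5 with a positive value and Abca1 with a negative one, each opposite in sign to the member's effect of Aβ alone. By its definition the interaction is also the effect of LPS with Aβ minus that without. The effect of LPS with Aβ was only −0.12 to 0.11 for the members other than Apoe. Their values thus mostly restate the effect of LPS alone with its sign turned. For Apoe the interaction was 3.53 on the log2 scale (SE 0.12, adjusted p = 1.3e-15 from limma), the number 10 from the highest among all genes tested. It was 1.94 for Pltp (SE 0.10, adjusted p = 4.2e-12), 1.00 for Nr1h3 (adjusted p = 1.1e-07), 0.48 for Mylip (adjusted p = 0.0018) and −0.72 for Abca1 (SE 0.08, adjusted p = 2.5e-07). Put the other way, the log2(fc) of Apoe with LPS was −3.04 without Aβ and 0.48 with it. Abcg1 passed narrowly (0.16, adjusted p = 0.029) and lost the call with no filter on low values (adjusted p = 0.054), in edgeR (adjusted p = 0.057) and without any of Ctrl replicate 3, LPS replicate 3, Aβ replicate 3 and Aβ+LPS replicates 1 and 2 (adjusted p = 0.055 to 0.079). Lpl did not pass (0.05, adjusted p = 0.69).

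Other genes of LXR action moved in both directions, as did all genes tested. Of all genes tested, 46.3% were called with LPS (23.8% higher and 22.5% lower) and 68.8% with Aβ (35.1% and 33.7%). In Aβ+LPS vs. LPS 56.1% were called (27.8% and 28.3%). The counts called in this and the following lists are to be read beside these shares. Of 8 receptors, partners and cofactors tested out of 9 listed, none was higher and 2 were lower with LPS, and 4 were higher and 2 lower with Aβ. Rxra, the retinoid X receptor that pairs with LXR, fell by a log2(fc) of −0.70 with Aβ (adjusted p = 6.6e-10 from limma) and the coactivator Ncoa3 by −0.47, while Rxrb rose by 0.29. Of 9 other LXR targets tested out of 11 listed, 4 were higher and 4 lower with LPS, 3 higher and 4 lower with Aβ, and 2 higher and 3 lower with Aβ and LPS than with LPS alone. Cd5l, a secreted macrophage protein, fell with LPS (log2(fc) −4.25) and with Aβ (−4.59), as did Smpdl3a, a phosphodiesterase (−1.03 and −2.21). In Aβ+LPS vs. LPS Smpdl3a was lower (−1.29), while Cd5l did not pass (−0.19, adjusted p = 0.19 from limma). Arl4c, a small GTPase, rose by 0.48 with LPS and by 1.15 with Aβ. Srebf1, the LXR target that drives fatty acid synthesis, did not pass in any of these comparisons (log2(fc) −0.09, −0.13 and 0.07). The median log2(fc) of the other targets with Aβ was −0.23.

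Genes of cholesterol uptake, storage and breakdown were called in both directions. Of all genes tested, 46.3%, 68.8% and 56.1% were called with LPS, with Aβ and in Aβ+LPS vs. LPS. All 11 receptors and adaptors of lipoproteins were tested, and 3 were higher and 7 lower with LPS and likewise with Aβ. Sort1, a sorting receptor that binds apolipoproteins, fell with Aβ (log2(fc) −1.73), as did Scarb1, a receptor for high-density lipoprotein (−1.08). Lrpap1, a chaperone of lipoprotein receptors, rose by 1.64 and Lrp8, an apolipoprotein E receptor, by 1.04. Of 19 genes of cholesterol transport, storage and oxidation, 8 were higher and 6 lower with LPS, 9 higher and 8 lower with Aβ, and 8 of each with Aβ and LPS against LPS alone. Cyp27a1, the sterol 27-hydroxylase, had a log2(fc) of −2.86 with Aβ (SE 0.22, adjusted p = 1.1e-10 from limma) and Nceh1, a cholesteryl ester hydrolase, of −1.66. Ch25h, another cholesterol hydroxylase, rose by 1.11 with Aβ (adjusted p = 1.1e-08). In Aβ+LPS vs. LPS Ch25h and Cyp27a1 were both lower (−1.04 and −1.64). In Aβ+LPS vs. LPS Lipa, the lysosomal acid lipase, had −1.28. Cav1, the caveolar protein caveolin-1, rose by 3.66 with Aβ and Soat2, which esterifies cholesterol, by 3.00.

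Among partners and inhibitors of Lpl, of 6 tested out of 8 listed, none was higher and 2 were lower with LPS, 1 was higher and 1 lower with Aβ, and 2 were higher and 1 lower with Aβ and LPS than with LPS alone. In these comparisons 46.3%, 68.8% and 56.1% of all genes tested were called. Angptl4, an inhibitor of lipoprotein lipase, had a log2(fc) of −0.46 (adjusted p = 0.0020 from limma) with Aβ and Furin, a protease that cleaves the lipase, of 0.70. Among 13 other apolipoproteins only 2 passed the filter on low values. Clu, or clusterin, the apolipoprotein J that binds Aβ, rose by a log2(fc) of 0.89 with LPS (adjusted p = 9.7e-06) and 1.79 with Aβ (adjusted p = 6.9e-11), opposite to Apoe. Apoa2 did not pass in either, with at most 20.4 normalized counts in a library.

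**Figure D4:**
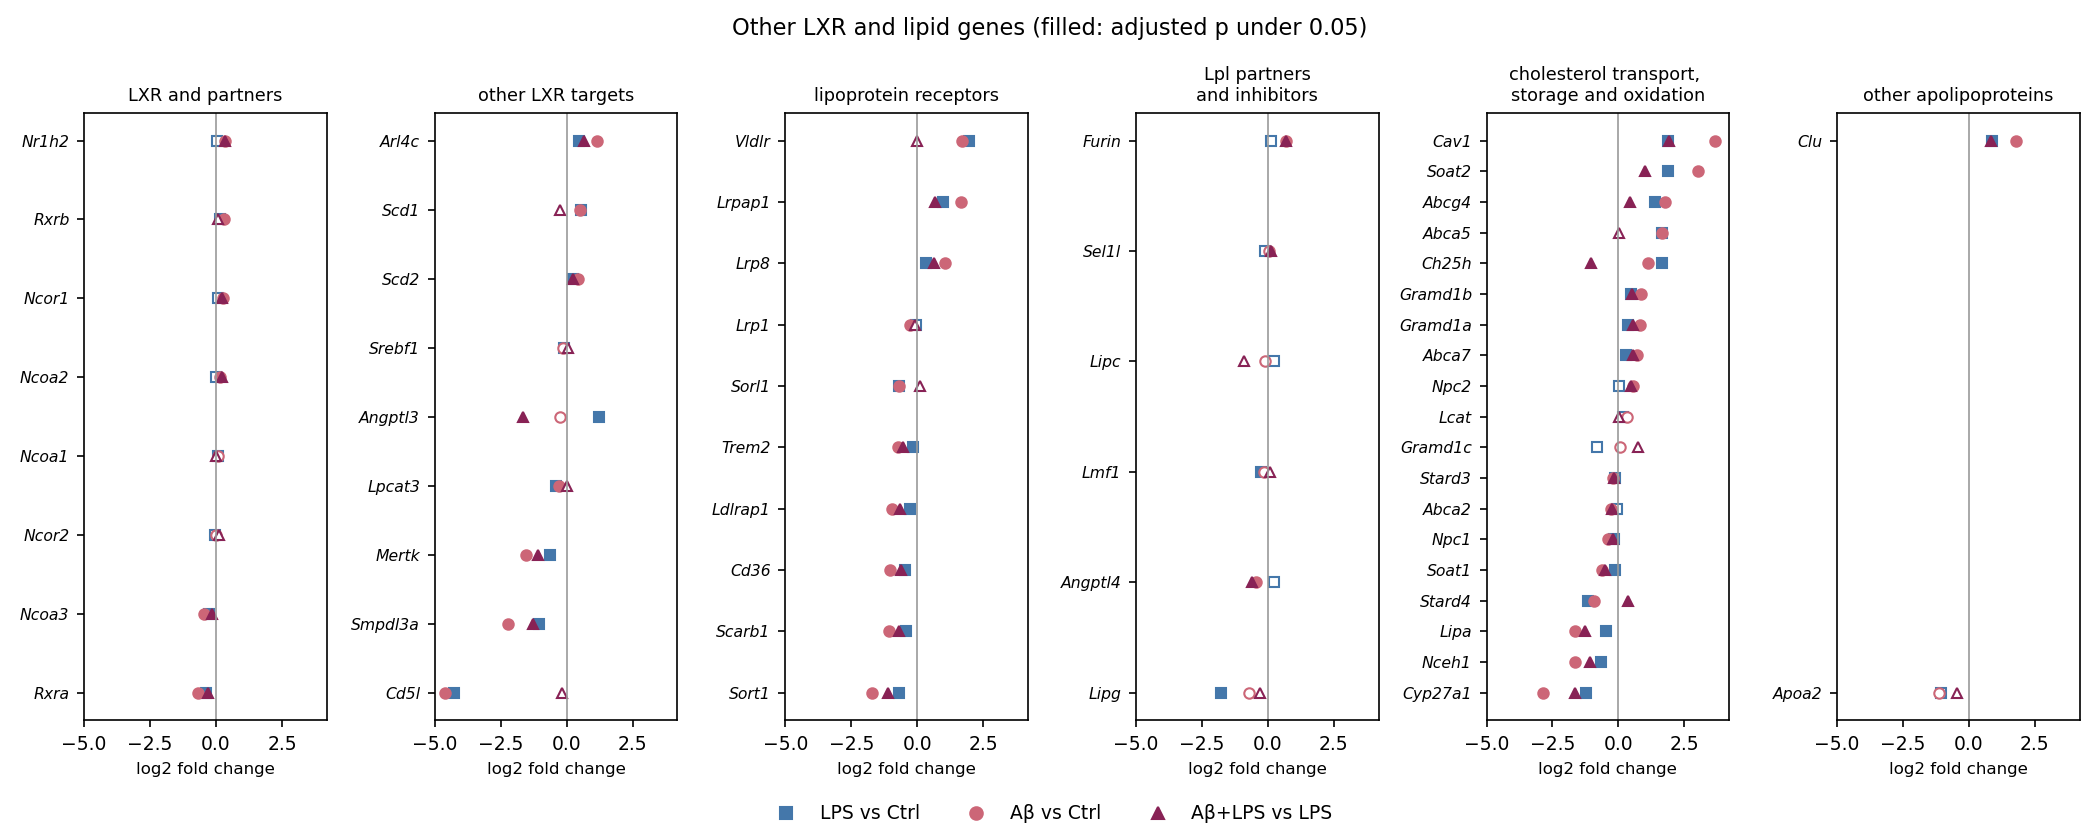
Log2 fold changes of the other LXR, receptor, lipase, cholesterol and apolipoprotein genes that were tested and are reported here, in LPS vs. Ctrl, Aβ vs. Ctrl and Aβ+LPS vs. LPS, by list, with filled symbols at an adjusted p under 0.05 in limma. Values lie on both sides of 0 in each of the larger lists, from −4.59 for Cd5l to 3.66 for Cav1 with Aβ.

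None of the neighbours of Apoe that were tested, Clptm1, Tomm40, Nectin2 and Bcam, was called lower with LPS or with Aβ. Of all genes tested, 22.5% were called lower with LPS and 33.7% with Aβ, so for so few genes this says little. Apoc1 and Apoc4 had too few reads to be tested. Apoc1 had 11 reads in Ctrl, 1 each in LPS and Aβ and 0 in Aβ+LPS, and the 3 reads of Apoc4 were all in Ctrl. Tomm40, a mitochondrial import channel whose gene lies next to Apoe, had 862 ± 51.5 normalized counts in Ctrl and 799 ± 41.4 with Aβ (mean ± SD, n = 3), and did not pass the test (log2(fc) −0.11, adjusted p = 0.17 from limma). In Aβ+LPS vs. LPS it was slightly lower (log2(fc) −0.20, adjusted p = 0.019). Nectin2, an adhesion molecule, rose from 243 ± 30.2 to 508 ± 10.1 with Aβ (log2(fc) 1.06, adjusted p = 3.4e-10). Clptm1 went from 3173 ± 79.5 to 3394 ± 63.7 (log2(fc) 0.10, adjusted p = 0.041).

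**Figure D5:**
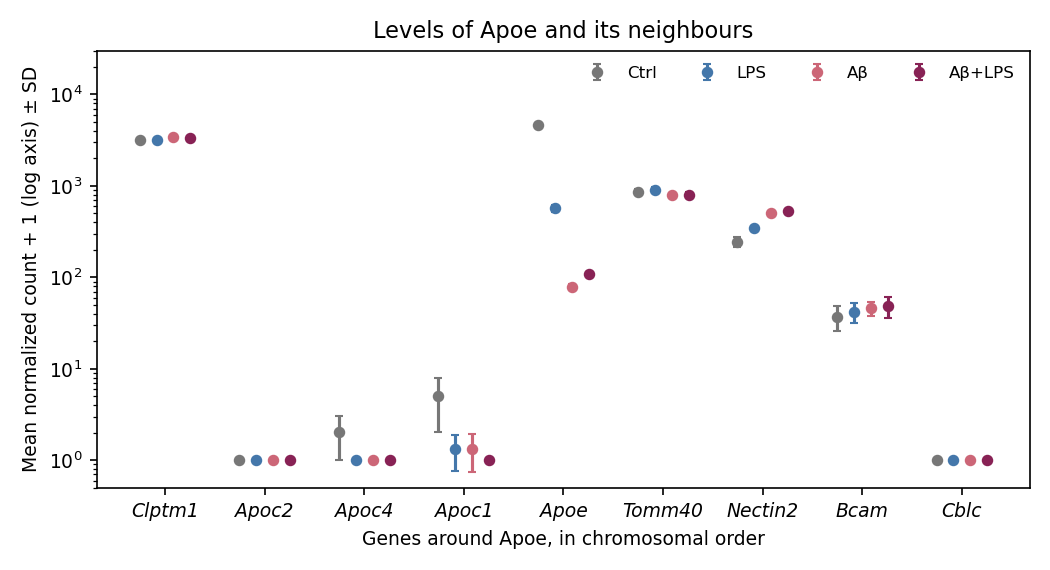
Mean normalized count + 1, on a log axis, of Apoe and 8 neighbouring genes in chromosomal order, with SD bars over 3 libraries in each group. Apoe drops from 4671 in Ctrl to 76.8 in Aβ, while Clptm1, Tomm40, Nectin2 and Bcam do not drop in this way, and Apoc2 and Cblc lie at 1, the position of 0 reads.

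The genes with a pattern closest to that of Apoe over the 12 libraries, among 10338 genes that averaged 100 or more normalized counts, were Bex1, C1qb, C1qc, Nes and Awat1. Their root mean square log2 difference from Apoe, each gene centred on its mean, was 0.41 for Bex1, 0.42 for C1qb, 0.47 for C1qc, 0.52 for Nes and 0.54 for Awat1. C1qb and C1qc encode chains of complement C1q, a product of macrophages and microglia, and C1qb had means of 5199, 1144, 174 and 168 normalized counts in Ctrl, LPS, Aβ and Aβ+LPS. In Aβ+LPS vs. Aβ these 5 genes had log2(fc) values of −0.27 to −0.03, where Apoe had 0.48. Within the members, Pltp was the closest to Apoe, at 1.15, and Abcg1 and Lpl were the closest pair, at 0.16. Abca1 had much closer company: Rab11fip1, at 0.08, an effector of recycling endosomes, then St3gal1, Ier3, Dusp16 and Sdc4, at 0.10 each.

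Most macrophage markers that were tested fell, as Apoe did and Abca1 did not. Cd5l and Mertk are also in the list of other LXR targets, and C1qb and C1qc were named above for their likeness to Apoe. The marker list is therefore not independent of those genes. Of all genes tested, 46.3%, 68.8% and 56.1% were called in the 3 comparisons that follow. Of 12 tested out of 14 listed, 2 were higher and 7 lower with LPS, 2 higher and 10 lower with Aβ, and 2 higher and 9 lower with Aβ and LPS than with LPS alone, with median log2(fc) values of −0.67, −1.88 and −1.19. Mrc1, the mannose receptor, had 19520 ± 1080 normalized counts in Ctrl, 7037 ± 314 with LPS, 762 ± 89.2 with Aβ and 561 ± 3.06 with Aβ+LPS. Adgre1, which encodes F4/80, and Cd14, a co-receptor for LPS, were the higher ones, Adgre1 at 21720 ± 195 in Ctrl and 35060 ± 515 with Aβ, and Cd14 at 4975 ± 310 and 61140 ± 2460. With Cd14 included, the summed level given above was higher with Aβ than in Ctrl, and with LPS it was lower in every library than in Ctrl. Csf1r and Cd68 had means of at least 20890 and 20840 normalized counts in every group, and Vsig4 and Timd4, of tissue-resident macrophages, were under 8 on average. Of 10 dendritic cell markers, 7 were higher and 2, Itgax and Csf2ra, lower with Aβ, and Cd74 did not pass (log2(fc) −0.08). The markers Ccr7 and Zbtb46 were higher with Aβ, at 3797 ± 234 and 337 ± 21.4, than in Ctrl, at 82.8 ± 15.9 and 106 ± 5.21 (adjusted p = 8.3e-22 and 2.8e-12 from limma). Markers of fibroblasts and stroma summed to at most 1.20 CPM in Ctrl and to 37.6 to 45.4 CPM in Aβ over 6 genes. Nearly all of this was Dcn, which encodes the proteoglycan decorin, at 1.06 ± 0.07 normalized counts in Ctrl and 995 ± 104 with Aβ, and Lum was at 26.0 ± 3.38 with Aβ. The collagen genes Col1a1, Col1a2 and Col3a1 stayed under 4 on average in every group, and Pdgfra did not pass with Aβ (log2(fc) −0.19, adjusted p = 0.57 from limma). The part of cell composition in the changes of Apoe, Pltp and Nr1h3 was not tested.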

How the data were processed

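Messenger RNA of 12 BM-DC cultures was sequenced from stranded libraries in single reads of 100 bases. Per the submitters' processing notes, the tools were FastQC 0.11.5, HISAT2 2.1.0, featureCounts 1.6.0, DESeq2 and R 3.4.4, with the GRCm38 build. The deposited signal is each gene's read count after division, by the authors, by the library's size factor. Columns with the authors' fold changes and p-values were not used. Whole reads were recovered from this signal for the count-based tests, and 100% of values lay within 0.05 of a whole read.

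The tables list 53465 genes, of which 26760 had a read. Tests were run on the 14324 genes whose mean reached 10 normalized counts in any group. The values log2(normalized count + 1) of all libraries were fitted by group alone in limma 3.58.1 with its trend option (8 residual degrees of freedom), and p-values were adjusted by Benjamini and Hochberg over all genes tested (threshold 0.05). Fold changes are on that scale and understate those of low genes. Alternatives were a pseudocount of 0.5 or 5, no filter, TMM scaling, edgeR 4.0.16, DESeq2 1.42.0, a replicate block, only the groups compared, and leaving out each library. The script was tested on simulated data. Coordinates and exon lengths came from GENCODE vM21, which held 99.6% of the gene IDs, and levels between genes are compared per kb of exon.

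The members and lists were chosen with earlier results of these data known. All members are named, and some genes counted in the lists are not reported here by name. From the other lists the text gives up to 2 genes per direction with the largest called change and a group mean of 100 normalized counts or more. Nr1h2, Srebf1, Apoa2, Ch25h and the markers were named after their values were seen. The software was R 4.3.3 and Python 3.11.15, with NumPy 2.4.6, pandas 2.3.3 and, for plots, Matplotlib 3.10.9.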

Additional observations from a re-analysis of the deposited data

Results flagged for a closer look

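The effect of Aβ differed between cells with and without LPS for 6 of the 7 members tested, by the interaction term of limma at an adjusted p under 0.05, against 31.7% of all genes tested. The log2 effect with LPS minus that without was 3.53 for Apoe, 1.94 for Pltp, 1.00 for Nr1h3, 0.48 for Mylip, 0.16 for Abcg1 and −0.72 for Abca1. These values mostly restate the effect of LPS alone with its sign turned, since LPS changed little in cells that had Aβ. For Abcg1 the call was lost under 7 of 19 alternatives. Groups of 3 libraries were not tested for outlying samples.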

How the results depend on the processing

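Over all 7 comparisons, 952 of the recomputed log2(fc) values of members kept their direction and their side of the threshold, 14 kept the direction but lost the call and 7 changed sign. The count of members higher in Aβ+LPS vs. Aβ, which was 1, became 0 with edgeR, DESeq2 and only the groups compared, and was 0 to 1 with single libraries left out. The count of all genes called there, 20, was 47 in DESeq2, 87 with only the groups compared, 12 with no filter and 7 to 36 with single libraries left out. The member concerned was Apoe, with log2(fc) 0.49 in edgeR, 0.49 in DESeq2, and 0.48 with only the groups compared. The interaction of Abcg1 lost its call with no filter (0.16) and in edgeR (0.15). Sign changes were limited to values near 0 that were not called: Mylip in Aβ+LPS vs. LPS was 0.0021 in edgeR and 0.0035 in DESeq2, and ran from −0.073 to 0.063 with single libraries left out. In the same way Abcg1 in Aβ+LPS vs. Aβ ran from −0.00082 to 0.029, Lpl there from −0.057 to 0.0043, and the interaction of Lpl from −0.010 to 0.095. The cause of these differences was not tested, though leaving out libraries also lowers the number of samples. Deviations of same-numbered libraries correlated by −0.09 to 0.04, which, in groups of 3, cannot show whether the numbers pair the cultures. Between Aβ and Aβ+LPS the best match of each library had the same number, with correlations of 0.01 to 0.04. The replicate block changed no call of a member. Under the block Apoe in Aβ+LPS vs. Aβ had an adjusted p of 0.021 from limma, with the same log2(fc) of 0.48. TMM scaling and the pseudocounts changed no member's call. Depth limits Apoc2, with 0 reads, and Apoe in Aβ, with 229 reads over 3 libraries.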
